A study of Homo sapiens with 60 samples.

Results

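The comparison described here rests on 6 libraries, 3 from HT29 cells given the high dose (500 µg/mL) of a Paeoniae Radix extract and 3 from cells given its low dose (20 µg/mL). They were chosen by their labels alone and are 6 of the 60 libraries of the series, a survey of how tonifying herbal medicines change the transcriptome of HT29. HT29 is a human colorectal adenocarcinoma line, and each culture was exposed for 24 h to an extract made with 70% ethanol. The other libraries used were Paeoniae Radix at the medium dose (100 µg/mL), Cnidii Rhizoma, Rehmanniae Radix Preparata and Cinnamomi Cortex at 500, 100 and 20 µg/mL, Astragali Radix at 100 and 20 µg/mL, all with 3 libraries a group, and Angelicae Gigantis Radix at 320, 64 and 12.8 µg/mL with 2 libraries a group. These 48 libraries in 17 groups shared 1 estimate of the spread between replicates, and the low dose, not an untreated culture, was the reference for every change given below. The labels do not say whether the numbered replicates were separate cultures, so the p-values reflect how far these libraries scatter, and that scatter may be technical only.

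Paeoniae Radix is the dried root of peony, a plant rich in monoterpene glycosides such as paeoniflorin and in galloyl tannins. HT29 cells keep traits of the colon lining, with some cells that make mucus, and they carry an activating BRAF change, which keeps the mitogen-activated protein kinase (MAPK) pathway on. Several stress programs are known to be read out well in RNA. ATF4 drives amino acid import and synthesis genes when amino acids or protein folding are disturbed, hypoxia-inducible factors drive glycolysis and oxygen-sensing genes, and MTF1 drives metallothioneins, small cysteine-rich proteins that bind zinc and copper, when free zinc is high.

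Depth was even. The 9 Paeoniae Radix libraries held 20103402 to 28125678 expected counts, and replicates differed by more than sampling noise. Across genes, a library correlated with the others of its group at a mean of 0.9962 to 0.9967. The low-dose libraries stood apart in one respect: 21875 to 22670 genes had a count in them, above the 21357 to 21683 of the high dose, with no overlap. Mitochondrially encoded genes took 7.85% to 9.11% of counts at the low dose and 7.57% to 8.15% at the high dose. All 10 colon epithelial markers checked were detected in the 6 libraries, with KRT8 at 6330 to 7060 CPM (counts per 1e6 counts of the library), whereas CDX2 (3.15 to 4.69 CPM), CDH17 (3.34 to 4.85 CPM) and CEACAM5 (4.38 to 7.95 CPM) were low. CD3E of T cells, COL1A2 and PDGFRB of fibroblasts and KDR of endothelium were at 0 in all 6, and PTPRC, the pan-leukocyte marker, in 5 of them. Of the same lists, LYZ (1500 to 1570 CPM), CD68 (4.89 to 8.76 CPM), CD14 (3.15 to 3.75 CPM), COL1A1 (1.17 to 1.96 CPM) and PECAM1 (1.42 to 1.96 CPM) were above 1 CPM in all 6, and of the 18 leukocyte, fibroblast and endothelial markers 8 passed the filter on low counts and 0 were called between the doses.

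The high dose changed many genes by a small amount. Of 16579 genes tested, 1670 (10.1%) passed the threshold between the high and the low dose, an adjusted p under 0.05 in edgeR's quasi-likelihood test. Of these, 967 (5.83%) were higher and 703 (4.24%) lower at the high dose. The median size of a called change was 0.22 on the log2 scale, and the median over all tested genes was -0.01. Among the genes called higher, 64 rose by at least 0.5 on the log2 scale and 9 by at least 1, against 195 and 51 among those called lower. More of the lower genes were scarce, as the group with the higher mean averaged at least 2 CPM for 956 of the 967 and 625 of the 703. The entry ENSG00000256013, at 0 CPM in the high-dose libraries and 3.63, 0.0 and 1.51 CPM at the low dose, had a change of -8.51. The part of abundance in the larger falls was not tested. The CPM of the high and low libraries did not overlap for 865 of the 967 and 664 of the 703. Since these genes were called for the same gap, that follows largely from the choice and adds no support. The share without overlap among all tested genes was not computed. With library totals in place of trimmed-mean (TMM) scaling, the split turned to 692 higher and 859 lower, so the balance of directions depends on the scaling. In bulk RNA, fewer cells of a type and less RNA per cell cannot be told apart.

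**Figure D1:**
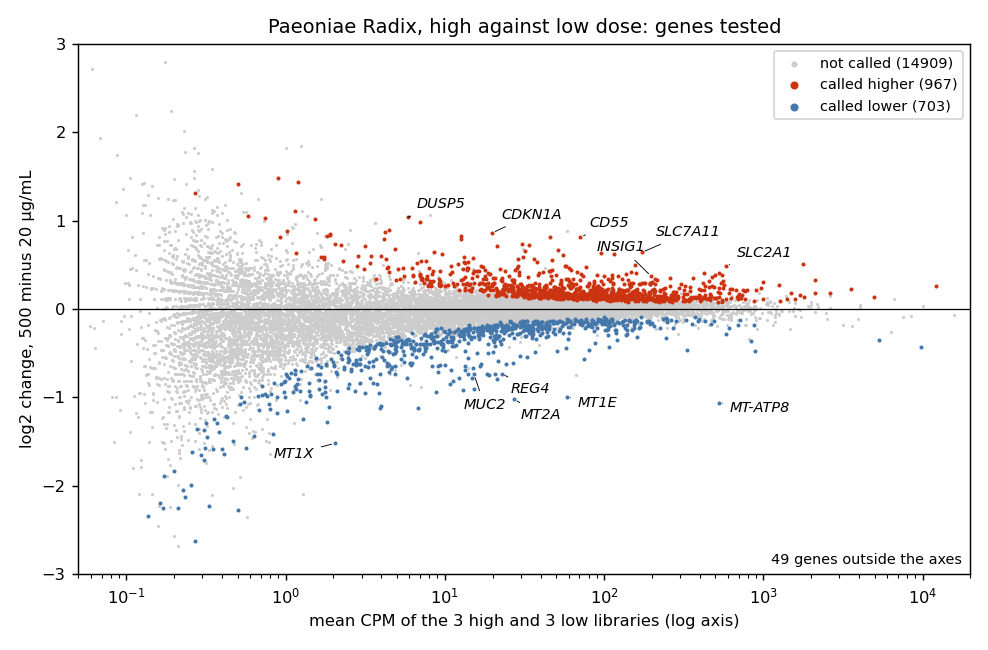
Change of each tested gene between 500 and 20 µg/mL Paeoniae Radix (y axis, log2) against its mean CPM over the 6 libraries (x axis, log scale). Red points are the 967 genes called higher, blue points the 703 called lower and grey points the rest. The lower side reaches further from 0, with 195 called genes at -0.5 or below against 64 at 0.5 or above. More of the lower genes are scarce: the group with the higher mean averaged at least 2 CPM for 625 of the 703, against 956 of the 967.

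The medium dose stayed near the low dose. Between them 67 genes (0.404%) were called, against 827 (4.99%) between the high and the medium dose. The 67 rested on single libraries: the count was 0 without low-dose replicate 1 (1565 genes at an unadjusted p under 0.05), 3 without low-dose replicate 3, 1 and 9 without medium-dose replicates 1 and 2, and 179 and 112 without low-dose replicate 2 and medium-dose replicate 3. The 827 fell to between 512 and 750 when 1 library was left out. For the 967 genes higher at the high dose, the median change was 0.06 from low to medium and 0.13 from medium to high, and for the 703 lower genes it was -0.10 and -0.18. The medium mean lay between the other doses for 766 of the 967 and 602 of the 703. Of the 967 higher genes 417, and of the 703 lower genes 222, were also called in the same direction between the high and the medium dose. That comparison reuses the high-dose libraries. Since these genes were chosen for their gap between high and low, which favours a medium mean in between, these medians and counts are a description.

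The number of calls depended on which libraries set the spread. It was 909 when the 6 libraries were fitted alone, of which 875 were among the 1670, and 303, every one among the 1670, when the 3 Astragali Radix high-dose libraries were added. All 1670 genes kept their direction in that last fit, which adds no support. Libraries of another group change the spread and hardly touch the log2 changes. The number of calls fell to 1043 without high-dose replicate 1 and to 1108 without low-dose replicate 3, with 374 and 405 genes lower in place of 703. Of the 135 genes named under a fixed rule and called, 77 were not called with the Astragali Radix libraries added. ATF3, EGR1, LDHA, SCD, TXNIP, MT1E and FABP1 were among the 77, and this loss is repeated below for some genes only. The call held under every alternative for 57 of the 135, among them DUSP5, CDKN1A, CD55, CHAC1, SLC7A11, SLC2A1, INSIG1, AKR1B10, MT1X, MT2A, ATOH1, MUC2, REG4 and IRF9. Counts of called list members between the high and the low dose are therefore followed by those of both other fits, the 6 libraries alone first and the fit with the Astragali Radix libraries second. Each count of the main fit is to be read beside the 5.83% of all tested genes called higher and the 4.24% called lower.

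**Figure D2:**
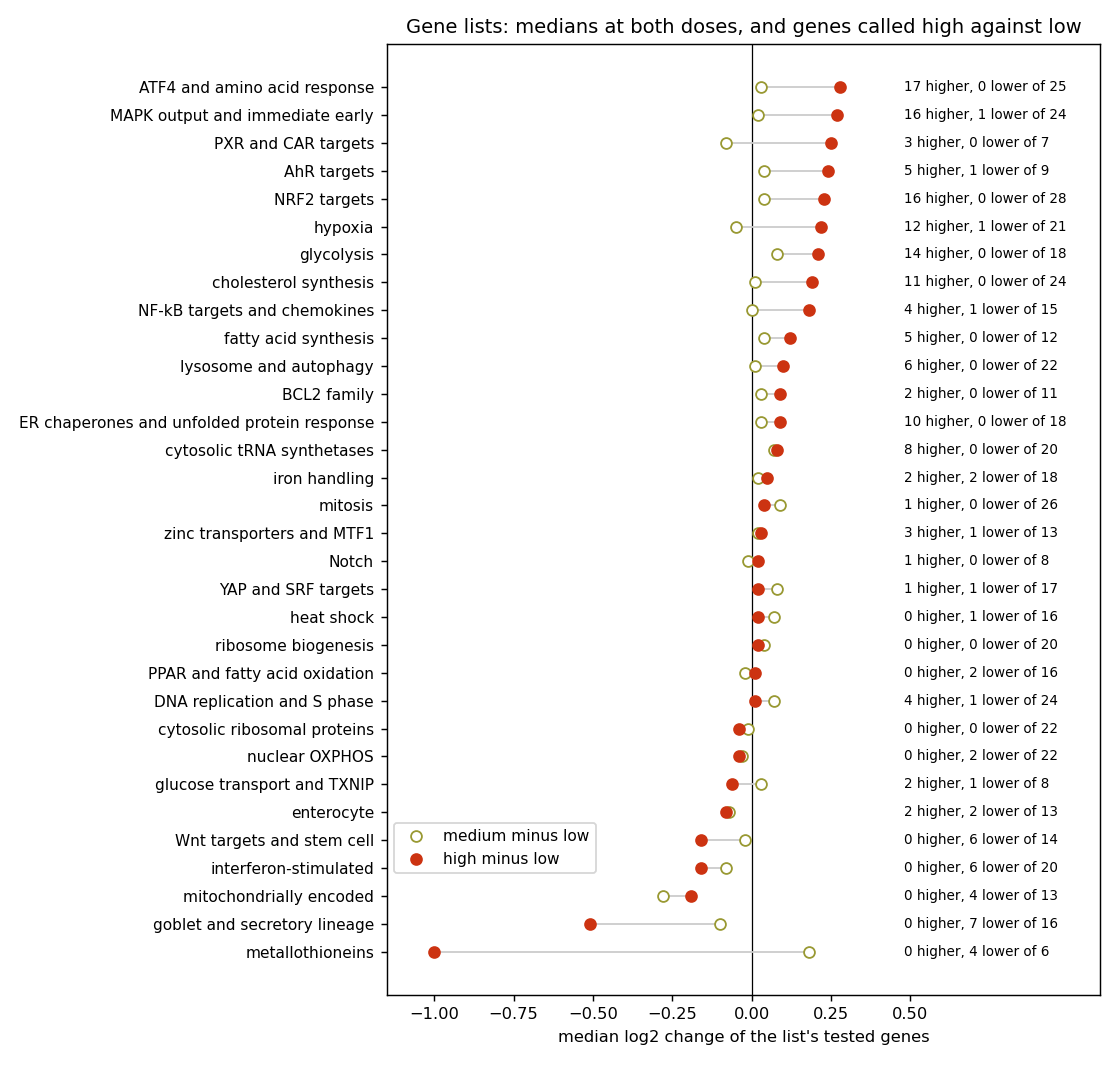
Median log2 change of each gene list (rows) from low to medium dose (open circles) and from low to high dose (filled circles), with the number of tested members called in each direction between high and low at the right. Metallothioneins have the lowest median at the high dose (-1.0) and ATF4 genes the highest (0.28), while the medium-dose medians of both lie near or above 0.

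Metallothionein RNA fell at the high dose. Of the 8 genes listed, 6 were tested, all 6 had a lower mean at the high dose and 4 were called lower (3 and 2 in the other fits), with a median change of -1.0 against -0.01 over all tested genes. MT1X (chromosome 16, 56682424 to 56684196) was at 1.17, 1.07 and 0.913 CPM in the 3 high-dose libraries, 3.66, 4.07 and 2.79 CPM at the medium dose and 3.31, 3.16 and 2.65 CPM at the low dose. Every high-dose library lay below all libraries of both other doses, a change of -1.52 ± 0.21 (SE, n = 3 per group, adjusted p = 7.1e-07) from low to high. MT2A, the metallothionein made in most tissues, was at 16.0, 20.4 and 16.8 CPM at the high dose, 41.1, 44.1 and 36.5 CPM at the medium and 34.3, 41.7 and 33.7 CPM at the low dose (-1.02 ± 0.12, adjusted p = 8.8e-08). MT1E was at 38.0, 39.8 and 39.0 CPM at the high dose, 93.2, 92.4 and 87.9 CPM at the medium and 70.6, 88.9 and 74.7 CPM at the low dose. It changed by -0.99 ± 0.08 (adjusted p = 2.7e-12), although this call was lost with the Astragali Radix libraries in the fit. MT1F (-1.05 ± 0.34, adjusted p = 0.039) was also called, at under 1 CPM in every library. MT1A and MT1G, at most 1.06 CPM in any library, were not called (adjusted p = 0.088 and 0.19). The medium dose did not share the fall: the median change of the 6 against the low dose was 0.18. Of the 6, 0 were called there, but with 0.404% of all genes called between these doses that count says little. Metallothionein genes are near-identical neighbours, and how the counting split reads between them was not tested.

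Promoter entries of RefSeq on GRCh38.p14 were matched for 2 of the 6 tested metallothioneins, MT1X and MT2A. Bases from the 250 before each start are shown, with those of the zinc exporter SLC30A1, because MTF1 is known to act through metal response elements in these promoters. Capitals mark the core letters TGCACNC or TGCGCNC on either strand, which need not be bound sites. In GENCODE release 29 the MT2A window lies inside exons of MT2A models that start further upstream, so 2 stretches of 30 bases are given for it; the MT1X bases stop where its GENCODE gene starts.
MT1X, chr16:56682220-56682423, plus strand: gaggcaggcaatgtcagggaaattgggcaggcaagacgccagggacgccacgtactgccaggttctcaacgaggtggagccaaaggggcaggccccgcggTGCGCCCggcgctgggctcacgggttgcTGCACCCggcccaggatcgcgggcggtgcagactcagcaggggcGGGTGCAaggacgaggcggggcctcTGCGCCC
MT2A, chr16:56608554-56608583, plus strand: ctataaacactgcttgccgcgcTGCACTCc
MT2A, chr16:56608518-56608547, plus strand: gggcggggctttTGCACTCgtcccggctct
SLC30A1, chr1:211579162-211579411, minus strand: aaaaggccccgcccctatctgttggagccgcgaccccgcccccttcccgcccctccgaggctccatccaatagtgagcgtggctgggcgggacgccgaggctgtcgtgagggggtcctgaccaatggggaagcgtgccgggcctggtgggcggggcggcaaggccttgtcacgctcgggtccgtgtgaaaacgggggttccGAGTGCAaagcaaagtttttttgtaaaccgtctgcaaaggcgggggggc
In the whole window MT1X held 4 matches, MT2A 7 and SLC30A1 1. At least 1 match was in 24.8% of the 35116 promoter windows of the same length, and 4 or more in 0.37%.

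Genes of zinc transport moved both ways, with 3 called higher and 1 lower of 13 tested (3 and 1, then 1 and 0, in the other fits). SLC39A10, a plasma membrane zinc importer, was at 61.4, 62.6 and 63.7 CPM at the high dose, 39.6, 40.7 and 46.6 CPM at the medium and 38.4, 41.7 and 39.2 CPM at the low dose. It rose by 0.67 ± 0.05 (adjusted p = 8.6e-14), with no overlap of the high dose with either other dose. SLC39A6, a related importer, rose by 0.17 ± 0.03 (adjusted p = 1.5e-04), and MTF1, the zinc-sensing factor itself, by 0.21 ± 0.05 (adjusted p = 2.0e-03). SLC30A1, the zinc exporter of the plasma membrane and like the metallothioneins a known MTF1 target, was at 31.5, 32.4 and 32.8 CPM at the high dose and 35.5, 42.2 and 41.4 CPM at the low dose (-0.28 ± 0.06, adjusted p = 1.0e-03). Of iron genes, 2 rose and 2 fell among 18 (1 and 1, then 1 and 0, in the other fits), beside 5.83% and 4.24% of all genes. These counts are too small to set the list apart. The higher count became 1 without high-dose replicate 3, and the lower count 1 without high-dose replicate 1 or low-dose replicate 3. TFRC, the transferrin receptor, rose by 0.21 ± 0.03 (adjusted p = 1.1e-05) and FTH1, the ferritin heavy chain, by 0.14 ± 0.04 (adjusted p = 8.2e-03). The iron exporter SLC40A1 (-0.17 ± 0.04, adjusted p = 9.4e-03) and the iron oxidase HEPH (-0.22 ± 0.06, adjusted p = 0.013) fell. FTH1 and SLC40A1 each lost their call in 3 or more of the 14 alternatives.

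**Figure D3:**
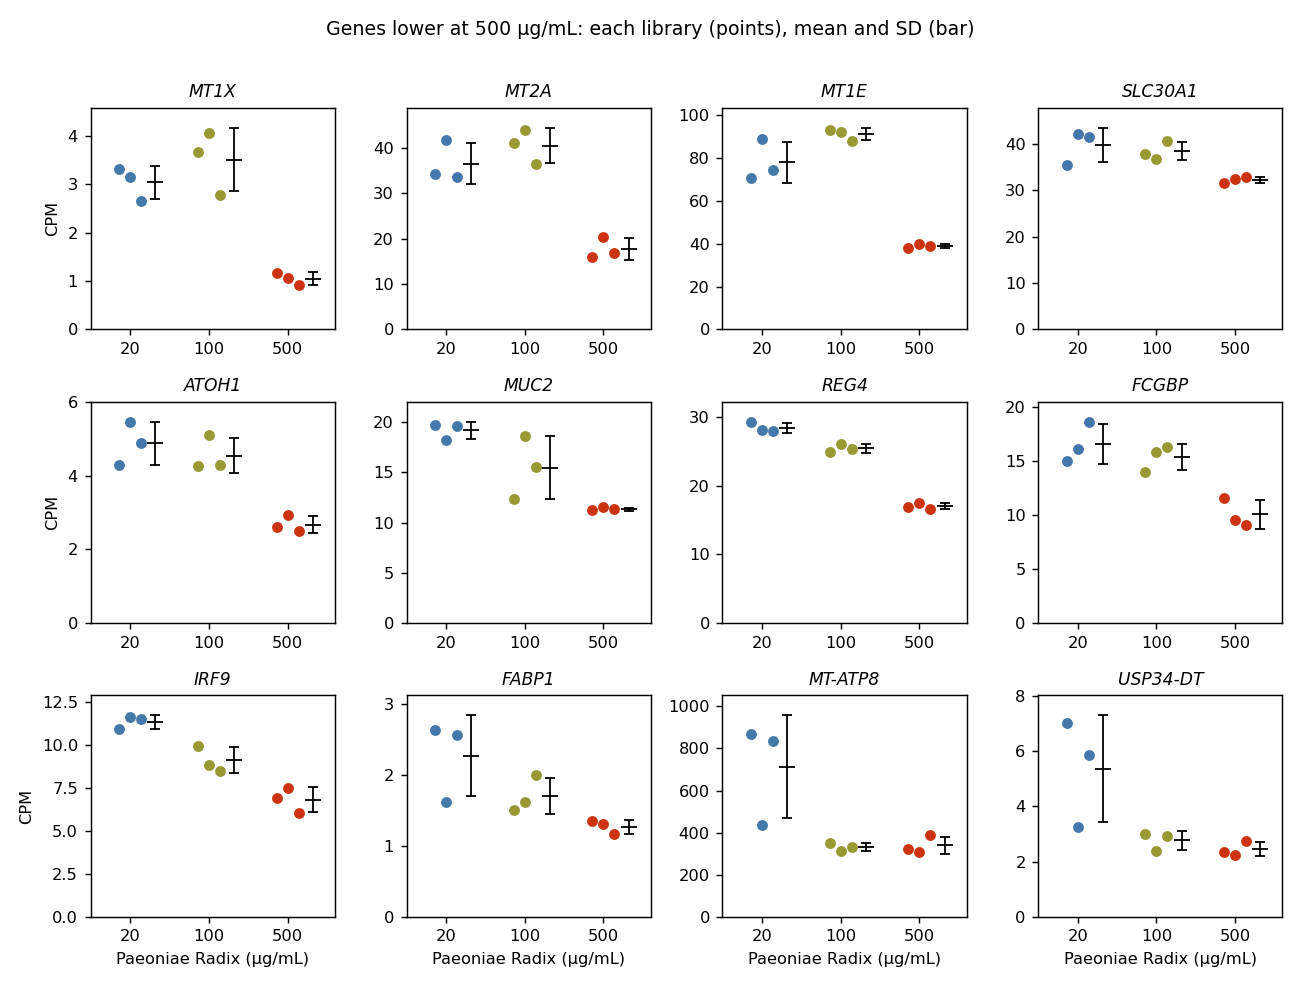
CPM of 12 genes lower at the high dose, in each Paeoniae Radix library (points), with the mean and SD of 3 libraries (bars), by dose in µg/mL (x axis). MT1X, MT2A and MT1E drop at 500 and not at 100 µg/mL, whereas MT-ATP8 and USP34-DT are high in 2 of the 3 low-dose libraries and alike at 100 and 500 µg/mL.

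Genes of the ATF4 amino acid response rose together. Of 25 tested, 17 were called higher and 0 lower (14 and 8 higher in the other fits), beside 5.83% of all genes, and their median change was 0.28. From low to medium dose 0 were called, beside 0.404% of all genes, and the median was 0.03. CHAC1, which degrades glutathione, was at 5.03, 6.05 and 5.19 CPM at the high dose, 2.72, 3.32 and 2.49 CPM at the medium and 2.95, 3.05 and 3.06 CPM at the low dose. ATF3, a stress-induced transcription factor, was at 6.34, 4.74 and 6.31 CPM at the high dose against 2.92, 3.24 and 3.33 CPM at the low dose. The high libraries of both genes lay above all others, with changes of 0.87 ± 0.12 (adjusted p = 1.9e-06) for CHAC1 and 0.89 ± 0.13 (adjusted p = 2.6e-06) for ATF3. SLC7A11, the cystine importer, was at 213, 211 and 202 CPM at the high dose, 140, 133 and 150 CPM at the medium and 132, 140 and 135 CPM at the low dose (0.64 ± 0.05, adjusted p = 1.3e-12). DDIT4, an inhibitor of mTORC1 signalling, was at 27.5, 24.0 and 27.0 CPM at the high dose, 13.9, 13.7 and 15.2 CPM at the medium and 16.1, 15.7 and 16.8 CPM at the low dose (0.71 ± 0.07, adjusted p = 3.1e-09). The pseudokinase TRIB3 rose by 0.55 ± 0.05 (adjusted p = 2.7e-11) and asparagine synthetase, ASNS, by 0.44 ± 0.04 (adjusted p = 9.4e-11). Serine synthesis genes of the same list moved less, with PSAT1 up by 0.21 and PHGDH (-0.01) and PSPH (0.02) not called. DDIT3, which encodes the death-linked factor CHOP, was at 7.19, 8.77 and 9.87 CPM at the high dose and 6.68, 6.10 and 7.62 CPM at the low dose, so the groups overlapped (0.37 ± 0.11, adjusted p = 0.027), and its call was lost in 6 of 14 alternatives.

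CHAC1 and ASNS are textbook ATF4 targets, and the stretch of 30 bases that holds the ATF4 motif upstream of each RefSeq start is shown. GENCODE release 29 places the whole CHAC1 window and 134 of the 250 bases of the ASNS window inside exons of longer models of these genes. The motif, TGATGNAA on either strand, was chosen after the values were seen, and capitals mark it.
CHAC1, chr15:40953251-40953280, plus strand: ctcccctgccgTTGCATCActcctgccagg
ASNS, chr7:97872458-97872487, minus strand: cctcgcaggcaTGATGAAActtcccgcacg
Of the 20 tested ATF4 list genes with a RefSeq promoter entry, 4 held a match in at least 1 window, beside 3.14% of all windows; a gene can have several entries. All 4 were among the 16 matched genes called higher.

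Enzymes that charge transfer RNAs rose slightly, 8 of 20 called higher and 0 lower with a median of 0.08 (2 and 0 in the other fits, and 2 with library totals). Without high-dose replicate 1 the 8 became 4, and without low-dose replicate 2 or 3 it became 5. GARS1 (0.16 ± 0.03, adjusted p = 4.3e-04) and WARS1 (0.23 ± 0.05, adjusted p = 5.4e-04) changed most. Their median from low to medium dose was 0.07, nearly that of the high dose. Between the high and the medium dose 0 of them were called, beside 4.99% of all genes. Chaperones of the endoplasmic reticulum were called higher for 10 of 18 genes and lower for 0, with a median of 0.09 (4 and 1 higher in the other fits, 6 with library totals). DNAJB9, a co-chaperone of that organelle, rose by 0.47 ± 0.09 (adjusted p = 2.3e-04) and HERPUD1, which takes part in the degradation of misfolded proteins there, by 0.25 ± 0.05 (adjusted p = 6.7e-04). HSPA5, the main chaperone of the list, rose by 0.12 ± 0.03 (adjusted p = 7.3e-03).

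Glycolysis genes rose at the high dose. Of 18 glycolysis genes, 14 were called higher and 0 lower (13 and 6 higher in the other fits), with a median of 0.21. The list of glucose transport genes and TXNIP did not share this, with 2 higher and 1 lower of 8 (1 and 1, then 1 and 0, in the other fits) and a median of -0.06. Its higher count was 1 without high-dose replicate 2 or low-dose replicate 1 or 3. SLC2A1, which encodes the glucose transporter GLUT1, was at 688, 682 and 658 CPM at the high dose, 518, 509 and 519 CPM at the medium and 495, 481 and 484 CPM at the low dose. The 3 dose groups did not overlap, and the change from low to high was 0.49 ± 0.03 (adjusted p = 9.2e-16). LDHA, which makes lactate from pyruvate, was at 1080, 1100 and 1120 CPM at the high dose and 902, 932 and 871 CPM at the low dose (0.31 ± 0.03, adjusted p = 9.4e-11). ALDOC rose by 0.43 ± 0.06 (adjusted p = 2.4e-06), ENO2 by 0.33 ± 0.07 (adjusted p = 4.3e-04) and the phosphofructokinase PFKP by 0.29 ± 0.03 (adjusted p = 8.9e-09), while PFKM, PFKL, HK1 and PGK1 were not called. TXNIP, an inhibitor of glucose uptake that glucose induces, was at 33.1, 36.6 and 35.1 CPM at the high dose and 40.4, 43.5 and 42.5 CPM at the low dose (-0.25 ± 0.05, adjusted p = 1.4e-04).

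Hypoxia-linked genes were called higher for 12 of 21 and lower for 1 (10 and 0, then 5 and 0, in the other fits), with a median of 0.22 and of -0.05 from low to medium dose. BHLHE40, a repressor of the circadian clock, was at 17.5, 14.8 and 15.3 CPM at the high dose, 9.76, 9.73 and 9.95 CPM at the medium and 9.96, 11.4 and 10.6 CPM at the low dose (0.59 ± 0.09, adjusted p = 3.9e-06). NDRG1, a gene widely induced by hypoxia and metal chelation, was at 19.9, 19.4 and 18.3 CPM at the high dose, 12.9, 13.9 and 12.7 CPM at the medium and 15.0, 16.3 and 14.7 CPM at the low dose. Its change from low to high was 0.34 ± 0.08 (adjusted p = 4.7e-03), and its medium libraries lay below both other doses. VEGFA, the vessel growth factor, rose by 0.28 ± 0.04 (adjusted p = 2.6e-06) and the collagen prolyl hydroxylase P4HA1 by 0.27 ± 0.05 (adjusted p = 7.4e-05). The list did not move as a whole: the lipid droplet gene HILPDA fell by 0.21 ± 0.07 on the log2 scale (adjusted p = 0.040), and CA9 (-0.00), BNIP3 (0.01) and ADM (0.17 ± 0.12, adjusted p = 0.46) were not called. The core of the hypoxia response element, ACGTG, is shown in capitals, on either strand, in stretches of 30 bases upstream of the RefSeq starts of 3 called genes that hold it, picked after their values were seen. GENCODE release 29 places the windows of ANKRD37 and BHLHE40 and part of that of P4HA1 inside exons of longer models of these genes.
ANKRD37, chr4:185396685-185396714, plus strand: ccagtgtttgtgtACGTGcggccgtggcgg
BHLHE40, chr3:4979275-4979304, plus strand: tcacagggtagaaCACGTagctccaaccca
BHLHE40, chr3:4979187-4979216, plus strand: tccaaCACGTGagactcatgtgatgaagcc
P4HA1, chr10:73096936-73096965, minus strand: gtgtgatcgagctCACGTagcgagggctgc
The core is part of the E-box CACGTG, which counts as a match on each strand. It was found in 12 of the 17 matched genes of the list and in 18.5% of all windows, where a gene counts if any of its entries holds it. Of the 9 matched genes that were called, 7 held the core, so it was also in matched genes that were not called. ANKRD37 itself was near the detection floor, at 1.84, 1.3 and 1.54 CPM at the high dose and 0.996, 0.489 and 0.685 CPM at the low dose (1.11 ± 0.36, adjusted p = 0.041).

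Growth factor and MAPK output genes also rose, 16 of 24 called higher and 1 lower (16 and 8 higher in the other fits), with a median of 0.27 and of 0.02 from low to medium. DUSP5, a nuclear phosphatase that ERK induces and that acts on ERK, was at 7.91, 6.84 and 8.88 CPM at the high dose, 4.60, 4.15 and 4.23 CPM at the medium and 4.05, 3.76 and 3.79 CPM at the low dose. At 1.04 ± 0.12 (adjusted p = 1.4e-08) it had the largest rise among the named genes that averaged at least 2 CPM at the high dose. EGR1, an immediate early factor, was at 34.4, 38.3 and 43.3 CPM at the high dose, 22.1, 26.3 and 24.5 CPM at the medium and 21.4, 26.3 and 27.0 CPM at the low dose (0.66 ± 0.10, adjusted p = 1.2e-05). The EGF receptor ligands HBEGF (0.62 ± 0.08, adjusted p = 1.1e-07), AREG (0.43 ± 0.05, adjusted p = 1.1e-07) and EREG (0.39 ± 0.06, adjusted p = 3.2e-06) rose. So did ERRFI1, an inhibitor of that receptor outside the list, at 121, 109 and 116 CPM at the high dose and 75.0, 77.6 and 73.5 CPM at the low dose (0.63 ± 0.04, adjusted p = 6.6e-16). FOSL1 (0.42), FOS (0.34), JUNB (0.31) and JUN (0.28) rose as well, while the cell cycle gene CCND1 fell by 0.16 ± 0.04 on the log2 scale (adjusted p = 1.4e-03) and SPRY2 (-0.04) and ETV4 (0.02) were not called.

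**Figure D4:**
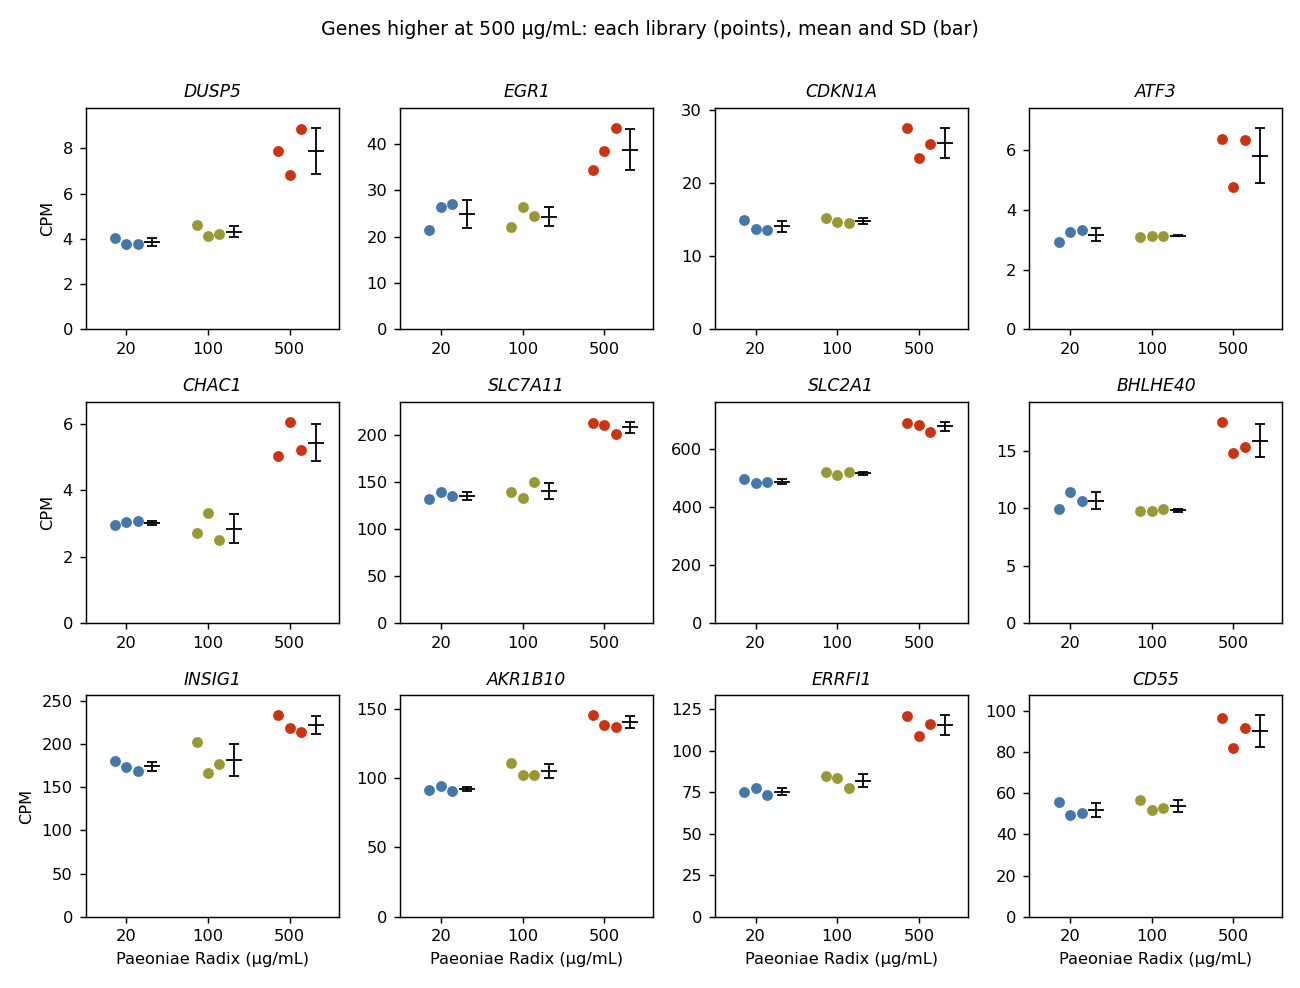
CPM of 12 genes higher at the high dose, in each Paeoniae Radix library (points), with the mean and SD of 3 libraries (bars), by dose in µg/mL (x axis). In each panel the 3 libraries at 500 µg/mL lie above the others; AKR1B10 alone among the 12 was also called between 100 and 20 µg/mL.

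CDKN1A, the cyclin-dependent kinase inhibitor p21, was at 27.5, 23.4 and 25.4 CPM at the high dose, 15.3, 14.7 and 14.5 CPM at the medium and 15.0, 13.7 and 13.6 CPM at the low dose (0.86 ± 0.08, adjusted p = 4.4e-11). Among other growth arrest and stress genes GDF15, a stress-induced cytokine (0.49 ± 0.04, adjusted p = 4.6e-12), the kinase PLK3 (0.49 ± 0.08, adjusted p = 6.7e-05) and PMAIP1 (0.42) rose. BTG2, an antiproliferative gene, was at 28.5, 29.9 and 33.0 CPM at the high dose against 42.6, 43.9 and 43.3 CPM at the low dose and fell (-0.49 ± 0.05, adjusted p = 1.4e-08), as did SESN1 (-0.27). BAX (0.01) and ZMAT3 (0.07) were not called. CD55, a surface inhibitor of complement, was at 96.7, 81.7 and 91.8 CPM at the high dose, 56.9, 51.6 and 53 CPM at the medium and 55.9, 49.5 and 50.5 CPM at the low dose (0.81 ± 0.06, adjusted p = 2.7e-12). CXCL8, the neutrophil chemokine, rose by 0.64 ± 0.10 (adjusted p = 1.2e-05), from 5.87, 6.74 and 7.67 CPM at the low dose to 10.4, 9.68 and 11.0 CPM. Of 15 NF-kB targets and chemokines 4 rose and 1 fell (2 and 0, then 1 and 0, in the other fits), and CXCL1, CXCL2 and NFKBIA were not called. The 4 became 2 without high-dose replicate 1 or low-dose replicate 1 or 3, and the 1 that fell was not called without high-dose replicate 1.

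NRF2 targets, the antioxidant genes that electrophiles induce, were called higher for 16 of 28 and lower for 0 (14 and 6 higher in the other fits), with a median of 0.23. AKR1B10, an aldo-keto reductase, was at 145, 138 and 137 CPM at the high dose, 111, 102 and 102 CPM at the medium and 91.4, 94.0 and 90.8 CPM at the low dose. The 3 groups did not overlap, and both the high dose (0.62 ± 0.04, adjusted p = 6.6e-16) and the medium dose (adjusted p = 0.023) were called against the low dose. The medium-dose call was lost without low-dose replicate 1 and with the Astragali Radix libraries added. GCLM, a subunit of the enzyme that starts glutathione synthesis, rose by 0.40 ± 0.07 (adjusted p = 3.3e-05), TXNRD1 by 0.35 ± 0.04 (adjusted p = 7.9e-09) and NQO1 by 0.24 ± 0.03 (adjusted p = 1.4e-07). HMOX1, heme oxygenase, was at 13.6, 11.7 and 11.4 CPM at the high dose and 11.3, 10.8 and 10.6 CPM at the low dose, above it in every library by 0.18 ± 0.06 without passing the threshold (adjusted p = 0.084). Among targets of the aryl hydrocarbon receptor, 5 of 9 rose and 1 fell (4 and 1, then 1 and 0). The lists share members. Of those that rose, NQO1 is also an NRF2 list gene and SLC7A5 an ATF4 list gene, and SLC7A11 is in both the ATF4 and the NRF2 list. NQO1 was the 1 still called with the Astragali Radix libraries. TIPARP rose by 0.30 ± 0.04 (adjusted p = 2.9e-07) and ALDH3A1 by 0.33 ± 0.04 (adjusted p = 8.5e-07), CYP1B1 fell by 0.21 on the log2 scale, and CYP1A1, the defining target, was under 1 CPM and not called (0.26 ± 0.30, adjusted p = 0.67). Of 7 PXR and CAR targets 3 rose (3 and 1 in the other fits). One of them, CYP3A5, was lowest at the medium dose, at 89.7, 94.7 and 97.1 CPM, against 102, 106 and 104 CPM at the low and 124, 118 and 123 CPM at the high dose.

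Sterol genes were called higher for 11 of 24 and lower for 0 (11 and 4 higher in the other fits), with a median of 0.19 and of 0.01 from low to medium. INSIG1, which retains the sterol sensor SCAP, was at 233, 219 and 214 CPM at the high dose, 202, 166 and 177 CPM at the medium and 180, 173 and 169 CPM at the low dose (0.37 ± 0.06, adjusted p = 2.8e-05). Its high-dose libraries lay above all others, and the medium and low doses overlapped. MSMO1, a sterol oxidase, rose by 0.32 ± 0.07 (adjusted p = 1.1e-03), while HMGCS1, an early enzyme of the pathway (0.18 ± 0.07, adjusted p = 0.085), was not called. In fatty acid synthesis 5 of 12 genes rose and 0 fell (4 and 0 in the other fits). SCD, the stearoyl-CoA desaturase, was at 2470, 2300 and 2250 CPM at the high dose and 1920, 1880 and 1870 CPM at the low dose (0.33 ± 0.04, adjusted p = 8.1e-09), while FASN (0.12) and ACACA (0.06) were not called. The fatty acid binding protein FABP1 was at 1.35, 1.3 and 1.16 CPM at the high dose, 1.5, 1.62 and 1.99 CPM at the medium and 2.63, 1.62 and 2.56 CPM at the low dose (-0.81 ± 0.18, adjusted p = 1.4e-03), and was not called with the Astragali Radix libraries.

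Genes of mucus-making goblet cells fell. Of 16 secretory lineage genes tested, 7 were called lower and 0 higher (7 and 6 lower in the other fits), beside 4.24% of all genes, with a median of -0.51. ATOH1, the factor that commits intestinal cells to the secretory lineage, was at 2.61, 2.92 and 2.49 CPM at the high dose, 4.27, 5.09 and 4.28 CPM at the medium and 4.30, 5.46 and 4.88 CPM at the low dose (-0.85 ± 0.12, adjusted p = 2.8e-06). MUC2, the gel-forming mucin of the colon, was at 11.2, 11.5 and 11.3 CPM at the high dose, 12.3, 18.6 and 15.5 CPM at the medium and 19.7, 18.2 and 19.6 CPM at the low dose (-0.74 ± 0.11, adjusted p = 4.3e-06). REG4, a lectin of secretory cells, was at 16.9, 17.5 and 16.6 CPM at the high dose, 24.9, 26.1 and 25.3 CPM at the medium and 29.3, 28.1 and 28.0 CPM at the low dose, so that the 3 groups did not overlap (-0.73 ± 0.05, adjusted p = 8.6e-14). The mucus protein FCGBP (-0.69 ± 0.11, adjusted p = 1.9e-05), TFF3 (-0.68 ± 0.13, adjusted p = 3.6e-04), the Notch ligand DLL4 (-0.66 ± 0.16, adjusted p = 3.5e-03) and SPINK4 (-1.49 ± 0.40, adjusted p = 0.012, under 1 CPM throughout) were the others that fell. AGR2 (0.01), SPDEF (0.10), MUC5AC (-0.15) and TFF1 (0.30) were not called. ST6GALNAC1, which adds sialic acid to mucin glycans, was at 1.17, 1.19 and 1.16 CPM at the high dose, 2.86, 2.87 and 3.13 CPM at the medium and 1.99, 2.86 and 2.92 CPM at the low dose (-1.11 ± 0.20, adjusted p = 1.1e-04).

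Wnt and stem cell genes fell for 6 of 14 and rose for 0 (3 and 2 lower in the other fits), with a median of -0.16. Without high-dose replicate 1 the 6 became 3. PROM1, a surface marker of progenitor cells, was at 105, 104 and 110 CPM at the high dose, 122, 129 and 132 CPM at the medium and 127, 133 and 131 CPM at the low dose (-0.27 ± 0.04, adjusted p = 3.8e-07). LGR5, the intestinal stem cell receptor, changed by -0.23 ± 0.05 (adjusted p = 1.2e-03) and the guidance receptor EPHB3 by -0.31 ± 0.07 (adjusted p = 3.0e-03). The Wnt feedback gene AXIN2 (-0.13 ± 0.04, adjusted p = 0.017) lost its call in 5 of 14 alternatives. Among enterocyte genes 2 of 13 rose and 2 fell (1 and 2, then 0 and 0), counts too small to set the list apart. CEACAM6 rose by 0.23 ± 0.05 (adjusted p = 1.1e-03) and PHGR1 changed by -0.34 ± 0.10 (adjusted p = 0.019). Interferon-stimulated genes fell for 6 of 20 and rose for 0 (6 and 1 lower in the other fits), with a median of -0.16. Without low-dose replicate 2 the 6 became 3. IRF9, the DNA-binding subunit of the interferon-activated complex, was at 6.92, 7.47 and 6.02 CPM at the high dose, 9.95, 8.86 and 8.51 CPM at the medium and 10.9, 11.6 and 11.5 CPM at the low dose, 3 groups without overlap (-0.71 ± 0.10, adjusted p = 1.2e-06). IFI6 (-0.61 ± 0.16, adjusted p = 7.6e-03) and IFI27 (-0.47 ± 0.13, adjusted p = 0.016) also fell, whereas ISG15 (0.02) and IFIT1 (-0.15) were not called.

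Some genes were called against the low dose at both other doses. At both the medium and the high dose, 23 of the 16579 tested genes were lower than at the low dose and 25 were higher. Some of them also differed between the high and the medium dose, such as AKR1B10 (0.44, adjusted p = 2.1e-11). Others did not, such as MT-ATP8 (0.05, adjusted p = 0.96). Since the medium-dose calls rested on single libraries, so do these counts. The 25 were all protein coding, against 16 of the 23. MT-ATP8, a short subunit gene of the mitochondrial ATP synthase, was at 321, 309 and 387 CPM at the high dose, 352, 315 and 330 CPM at the medium and 871, 435 and 837 CPM at the low dose (-1.06 ± 0.22, adjusted p = 8.0e-04). Its call at the high dose held under every alternative. That at the medium dose did not: among other losses, it was lost without low-dose replicate 1 or 3, without medium-dose replicate 1 and with the Astragali Radix libraries added. In CPM, low-dose replicates 1 and 3 were well above replicate 2. The noncoding transcript USP34-DT showed the same order, at 7.00, 3.24 and 5.84 CPM in the 3 low-dose libraries and 2.25 to 3.00 CPM in the 6 others, as did the pseudogene RPL17P7, at 6.15, 3.76 and 5.48 CPM against 2.35 to 3.06 CPM. In the low-dose cultures of Cnidii Rhizoma, Rehmanniae Radix Preparata and Cinnamomi Cortex, MT-ATP8 averaged 446 ± 73.5, 454 ± 65.4 and 397 ± 69.5 CPM (SD, n = 3), against 714 CPM for Paeoniae Radix. The longest transcript of the 23 genes had a median of 927 nucleotides, against 3119 for all tested genes. The low-dose libraries are also those with more genes detected, 21875 to 22670 against 21357 to 21683 at the high dose, and the part of that difference in these results was not tested. Of 13 mitochondrially encoded genes 4 were called lower at the high dose (4 and 1 in the other fits, 2 without high-dose replicate 1 or 2 or low-dose replicate 1, 2 with DESeq2's Wald test and 10 without the filter), with a median of -0.19 at the high and -0.28 at the medium dose, so they did not follow the dose. MT-CO3 was at 7940, 8230 and 8510 CPM at the high dose and 12500, 10900 and 10300 CPM at the low dose (-0.43 ± 0.09, adjusted p = 5.4e-04). Reads of pseudogenes, and of overlapping or antisense transcripts, may be split by the counting, so these values are uncertain.

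A smaller set was graded. QPRT, an enzyme of NAD synthesis, was at 10.7, 11.3 and 12.2 CPM at the high dose, 13.5, 15.3 and 15.9 CPM at the medium and 18.6, 18 and 18.8 CPM at the low dose (-0.67, adjusted p = 1.3e-09). SELENBP1, a selenium-binding protein, was at 12.9, 16.8 and 16.3 CPM, then 19.5, 21.9 and 22.1 CPM, then 24.9, 25.7 and 27.3 CPM (-0.73, adjusted p = 2.4e-10). SPINK1, a secreted trypsin inhibitor, was at 12.4, 12.8 and 15.6 CPM, then 17.1, 17.8 and 19.3 CPM, then 22.3, 23.3 and 23.7 CPM (-0.74, adjusted p = 1.1e-08). For these 3 genes the dose groups did not overlap and both higher doses were called against the low dose. Their medium-dose calls were lost without low-dose replicate 1, without medium-dose replicate 1 and with the Astragali Radix libraries added, where 0 genes were called lower. The 3 genes were picked from the 23 after their values were seen.

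Proliferation genes stayed near 0. Of 26 mitosis genes, 1 was called higher and 0 lower (0 in both other fits), and MKI67, the proliferation marker, changed by -0.01 ± 0.07 (adjusted p = 0.94). The one called, TPX2 (0.09 ± 0.03, adjusted p = 0.048), overlapped between doses and lost its call in 9 of 14 alternatives. Of 24 DNA replication genes 4 rose and 1 fell (1 and 1, then 0 and 0, in the other fits), led by RRM2, a ribonucleotide reductase subunit (0.21 ± 0.03, adjusted p = 4.0e-07). Ribosome biogenesis genes had 0 of 20 and cytosolic ribosomal proteins 0 of 22 called in either direction. Among 16 heat shock genes HSPB1, a small heat shock protein, changed by -0.35 ± 0.05 (adjusted p = 5.8e-07) and no other was called. Nuclear genes of oxidative phosphorylation were called lower for 2 of 22 (0 in both other fits, and 0 or 1 without any 1 library other than high-dose replicate 3), and lysosome and autophagy genes higher for 6 of 22 (4 and 0), led by the autophagy receptor SQSTM1 (0.26 ± 0.04, adjusted p = 2.9e-06). In the BCL2 family the survival genes BCL2L1 (0.25 ± 0.04, adjusted p = 2.9e-06) and MCL1 (0.15 ± 0.03, adjusted p = 5.4e-04) rose, 2 of 11 (2 and 1). The Notch ligand JAG1 (0.33 ± 0.06, adjusted p = 2.8e-04) was the 1 gene called among 8 of that pathway (1 and 1). Of 17 YAP and SRF targets, FLNA rose and CCN2 fell (1 and 1, then 0 and 0), beside 5.83% and 4.24% of all genes. Counts this small do not set a list apart.

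The high-minus-low change was then compared with that of 3 other extracts given at the same doses, as an interaction in the same fit. It differed for 2623 genes (15.8%) from Cnidii Rhizoma, for 328 (1.98%) from Rehmanniae Radix Preparata and for 777 (4.69%) from Cinnamomi Cortex. The change was higher under Paeoniae Radix for 8.24%, 1.38% and 3.08% of tested genes in that order, and lower for 7.58%, 0.603% and 1.61%. List counts below are followed by those of the compared groups alone and then of the fit with the Astragali Radix libraries. Of the 1670 genes called for Paeoniae Radix, these were 791 (47.4%), 279 (16.7%) and 495 (29.6%). With the Astragali Radix high-dose libraries in the fit the 3 differences were called for 714, 25 and 41 genes. Since the 1670 were chosen for their change under Paeoniae Radix, the shares are a description. For Rehmanniae Radix Preparata, 200 of the 279 rose more and 79 fell more under Paeoniae Radix.

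Sterol genes had a higher change under Paeoniae Radix for 20, 21 and 18 of 24 genes against Cnidii Rhizoma, Rehmanniae Radix Preparata and Cinnamomi Cortex, and a lower change for 0 each time. The counts were 20, 19 and 14 in the compared groups alone and 10, 7 and 4 with the Astragali Radix libraries. INSIG1 averaged 123 ± 5.35 CPM (SD, n = 3) at the high and 165 ± 3.43 CPM at the low dose of Cnidii Rhizoma, 149 ± 8.73 and 175 ± 5.69 CPM for Rehmanniae Radix Preparata, and 143 ± 13.0 and 175 ± 1.08 CPM for Cinnamomi Cortex, the opposite order to the rise under Paeoniae Radix. The differences were 0.75 ± 0.09, 0.59 ± 0.09 and 0.65 ± 0.09, with adjusted p of 8.4e-09, 2.6e-05 and 1.7e-06. SLC39A10 hardly moved in any of the 3, at 38.0 and 39.4 CPM, 40.7 and 39.5 CPM, and 39.9 and 40.7 CPM for high and low, and the difference of its change was 0.68 ± 0.07, 0.61 ± 0.07 and 0.69 ± 0.07, with adjusted p of 2.6e-10, 9.5e-08 and 1.8e-09.

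Metallothioneins had a lower change under Paeoniae Radix for 3 of 6 against each of the 3 extracts (2, 3 and 3 in the compared groups alone, and 0 each with the Astragali Radix libraries). MT1E averaged 79.4 ± 2.33 and 85.0 ± 4.23 CPM at the high and low dose of Rehmanniae Radix Preparata and 82.6 ± 7.74 and 88.9 ± 8.13 CPM for Cinnamomi Cortex, with differences of -0.90 ± 0.11 (adjusted p = 2.8e-07) and -0.89 ± 0.11 (adjusted p = 1.5e-07). Under Cnidii Rhizoma it was 56.4 ± 0.682 and 86.8 ± 4.43 CPM, and the difference was -0.41 ± 0.11 (adjusted p = 5.6e-03). MT1X differed from Cnidii Rhizoma by -1.14 ± 0.27 (adjusted p = 2.4e-03), and MT2A did not differ from it past the threshold (-0.36 ± 0.17, adjusted p = 0.16). CDKN1A changed more under Paeoniae Radix than under each of the 3, by 0.98 ± 0.11, 0.83 ± 0.11 and 1.35 ± 0.11 in the order above (adjusted p = 5.3e-09, 3.1e-06 and 2.9e-11), and SLC2A1 by 0.40 ± 0.04, 0.32 ± 0.04 and 0.47 ± 0.04 (adjusted p = 6.1e-10, 3.9e-06 and 2.4e-10). MAPK output genes had a higher change for 12, 8 and 15 of 24 (11, 3 and 11, then 7, 1 and 2), and a lower change for 1, CCND1, against Rehmanniae Radix Preparata.

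All 28 NRF2 targets had a lower change under Paeoniae Radix than under Cnidii Rhizoma (28, then 27), beside 7.58% of all genes. Under Cnidii Rhizoma AKR1B10 averaged 898 ± 40.1 CPM at the high and 120 ± 2.09 CPM at the low dose (difference -2.33 ± 0.05, adjusted p = 1.6e-32). Against Rehmanniae Radix Preparata 0 were higher and 1 lower, with a median difference of -0.00, and AKR1B10 was at 143 ± 2.91 and 98.4 ± 5.13 CPM there (difference 0.07 ± 0.05, adjusted p = 0.67). Against Cinnamomi Cortex 6 were higher and 0 lower (5, then 0, higher). ATF4 genes had a higher change for 1 and a lower change for 8 of 25 against Cnidii Rhizoma (1 and 8, then 0 and 4). Against Rehmanniae Radix Preparata 9 were higher (7, then 0) and against Cinnamomi Cortex 10 (7, then 3), with 0 lower. Goblet genes had a lower change for 6 of 16 against Cnidii Rhizoma (6, then 4), for 2 against Rehmanniae Radix Preparata (2, then 0) and for 1, REG4, against Cinnamomi Cortex (2, then 0), where AGR2 had a higher change. The contrast between extracts in these counts was not tested. ATOH1, at 3.14 ± 0.244 and 5.00 ± 0.601 CPM under Rehmanniae Radix Preparata, did not differ from it past the threshold (-0.19 ± 0.17, adjusted p = 0.74).

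**Figure D5:**
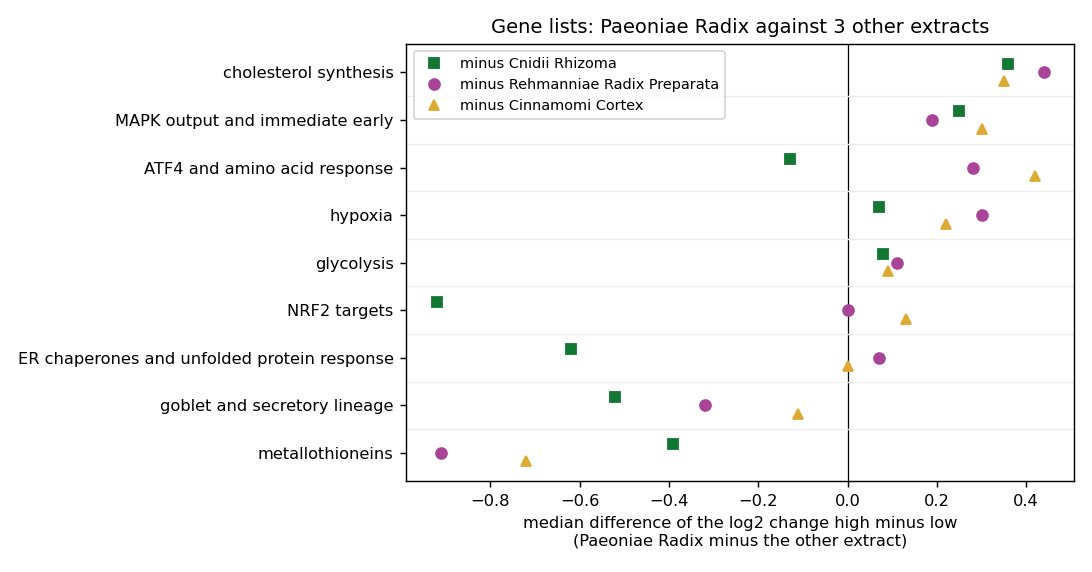
Median over each gene list of the difference in the high-minus-low log2 change, Paeoniae Radix minus Cnidii Rhizoma (squares), Rehmanniae Radix Preparata (circles) or Cinnamomi Cortex (triangles). Sterol, MAPK, hypoxia and glycolysis medians lie above 0 for all 3 extracts, and metallothionein and goblet medians below 0 for all 3. The NRF2 median is -0.92 against Cnidii Rhizoma, -0.00 against Rehmanniae Radix Preparata and 0.13 against Cinnamomi Cortex.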

How the data were processed

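HT29 libraries were prepared with a directional RNA kit, per the labels' protocols. Per the submitters' processing notes, the authors used FastQC 0.11.9, Trim Galore 0.6.5, STAR 2.7.3a and RSEM 1.3.3 on hg38; the sources used here do not give the annotation or the strand setting of the counting. The deposited table holds expected counts for 60675 gene entries, 8.78% of them not whole, in 273 columns. The 60 columns of labelled samples were mapped by name and the other 213 were not used. Counts were rounded before testing. Symbols came from a gene name table (41209 entries) or GENCODE release 29 (497), and entries with neither held 0.528% of counts.

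The 48 libraries given in the report entered 1 edgeR 4.0.16 quasi-likelihood model (R 4.3.3) with TMM scaling and edgeR's default filter on low counts, tested before on simulated counts. Left out were the Astragali Radix high-dose and DMSO vehicle libraries, added back in 2 alternatives, and the formulas with 1 library. Printed CPM were computed here as rounded counts over the library total, without TMM, whose factors were 0.9878 to 1.0128 in the 9 Paeoniae Radix libraries, and SEs were derived from each log2 change and the root of its F statistic. An adjusted p is edgeR's, with Benjamini-Hochberg adjustment over all genes tested, called under 0.05. Lists are described by counts and medians, with no test of a list. The other alternatives were DESeq2 1.42.0 (size factors or the Wald test), library totals, the compared groups alone, a block for the replicate number, no filter and leaving out each library.

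Members and lists were chosen with earlier results of these data known. Genes were named by rule: the 12 largest changes and 6 smallest p-values each way among called genes with a mean of at least 2 CPM and no overlap between groups, up to 4 called members of each list, 26 genes whatever their result, and the 4 largest each way in the other comparisons. Some results are not reported here. Other list members named were chosen after their values were seen. Promoter sequences are RefSeq's on GRCh38.p14, searched in the 250 bases before each start.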

Additional observations from a re-analysis of the deposited data

Results flagged for a closer look

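Genes are given here because their high-minus-low change differed between Paeoniae Radix and another extract by the interaction term of the edgeR fit, with adjusted p from that fit; they are from the 4 largest differences each way per extract, among genes also called for Paeoniae Radix. That choice favours large values, and with the Astragali Radix high-dose libraries in the fit far fewer differences were called (714, 25 and 41 in place of 2623, 328 and 777).

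Against Cnidii Rhizoma the lower changes belonged to enzymes and lipid genes that rose steeply under that extract. AKR1C1, an aldo-keto reductase, averaged 194 CPM at its high and 17.5 CPM at its low dose against 18.7 and 15.4 CPM for Paeoniae Radix (difference -3.22 ± 0.08, adjusted p = 1.3e-29). FABP1 averaged 12.5 and 2.78 CPM there against 1.27 and 2.27 CPM (-3.02 ± 0.21, adjusted p = 1.1e-14). Its means thus went in opposite directions under the 2 extracts. The difference for AKR1B10 was -2.33. On the other side SLC14A1, a urea transporter, averaged 1.11 and 5.48 CPM under Cnidii Rhizoma against 4.72 and 6.19 CPM (1.89 ± 0.18, adjusted p = 5.0e-11). SCEL, a protein of the cornified envelope, was at 4.63 and 12.7 CPM against 15.9 and 11.8 CPM (1.87 ± 0.22, adjusted p = 1.1e-08). CXCL8 was at 3.67 and 7.37 CPM against 10.4 and 6.76 CPM (1.60 ± 0.15, adjusted p = 6.0e-11), and the kinase anchor AKAP12 at 5.96 and 10.2 CPM against 16.2 and 9.15 CPM (1.56 ± 0.22, adjusted p = 5.1e-07).

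Against Rehmanniae Radix Preparata the noncoding transcript IGFL2-AS1 averaged 7.32 and 9.77 CPM at the high and low dose, and 16.0 and 9.26 CPM under Paeoniae Radix (1.20 ± 0.18, adjusted p = 5.4e-05). DDIT4 differed by 1.05 ± 0.11 (adjusted p = 2.6e-08), the large scaffold gene AHNAK2 by 1.01 ± 0.18 (adjusted p = 5.2e-04) and the peptide gene ADM2 by 0.98 ± 0.26 (adjusted p = 0.034). MT1X, at 3.09 and 3.05 CPM there, differed by -1.56 ± 0.26 (adjusted p = 2.5e-04). ABCA1, the cholesterol exporter, averaged 9.51 and 6.13 CPM against 3.77 and 5.98 CPM, again opposite directions (-1.30 ± 0.15, adjusted p = 2.5e-07). CD27-AS1 (-1.13 ± 0.25, adjusted p = 7.5e-03) and TAPBPL (-1.06 ± 0.19, adjusted p = 7.3e-04) were low in abundance, at 1.18 and 2.40 CPM and at 2.55 and 4.08 CPM under Paeoniae Radix.

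Against Cinnamomi Cortex, IGFL2-AS1 (1.51 ± 0.19, adjusted p = 4.7e-07), ADM2 (1.35 ± 0.27, adjusted p = 1.3e-03), CDKN1A (1.35 ± 0.11, adjusted p = 2.9e-11) and AHNAK2 (1.22 ± 0.18, adjusted p = 1.7e-05) changed more upward, and MT1X more downward (-1.30 ± 0.26, adjusted p = 1.6e-03). The differences for USP34-DT (-1.40 ± 0.29, adjusted p = 2.3e-03), MT-ATP8 (-1.31 ± 0.31, adjusted p = 6.8e-03) and RPL17P7 (-1.20 ± 0.30, adjusted p = 0.013) came with high values in low-dose Paeoniae Radix replicates 1 and 3, given in the report.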

How the results depend on the processing

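No named gene's change turned direction under any of these alternatives. Those that only add libraries of other groups leave the log2 changes nearly as they were, so they could not turn one. The libraries that set the spread moved the counts most. With the Astragali Radix high-dose libraries added, high against low fell from 1670 to 303 (148 higher, 155 lower), high against medium from 827 to 115, medium against low from 67 to 0 (662 at an unadjusted p under 0.05; DESeq2's Wald test gave 149 in the 48 libraries), and the differences from Cnidii Rhizoma, Rehmanniae Radix Preparata and Cinnamomi Cortex to 714, 25 and 41. With the compared groups alone, these counts were 909 (531 higher, 378 lower), 359 and 12, and 160 and 313 for the latter 2 extracts. Without a filter on low counts, medium against low had 400 calls and the difference from Rehmanniae Radix Preparata 505. Leaving out 1 library gave 1043 to 1549 for high against low (669 to 894 higher, 374 to 655 lower), 512 to 750 for high against medium, 0 to 179 for medium against low and 503 to 822 for the difference from Cinnamomi Cortex; where an arm is left with 2 libraries it still shares the spread of the other groups. Library totals turned the split from 57.9% to 44.6% higher. Same-numbered high and low libraries had correlations of 0.07, 0.09 and 0.07 in their deviations from the group means, against -0.08 to -0.0 for differently numbered ones. For high and medium libraries the values were 0.15, 0.04 and 0.19 against -0.17 to 0.03, and for medium and low 0.03, 0.0 and 0.05 against -0.04 to 0.01. The main fit did not use the replicate number, and whether it marks a shared effect was not tested. With that number fitted as a replicate block, counts were 1984, 998 and 124, and 2858, 459 and 993 for the extracts. The cause of these shifts was not tested. Depth limits genes under about 1 CPM, such as SPINK4, whose change of -1.49 had an SE of 0.40.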

Other observations

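The genes called higher and lower differed in kind. Of the 967 higher at the high dose 97.6% were protein coding, against 86.3% of the 703 lower and 78.3% of all 16579 tested. The longest annotated transcript had a median of 3896 nucleotides among the higher genes, 3106 among the lower and 3119 among all tested. Pseudogenes made up 0.517% of the higher, 4.13% of the lower and 5.83% of the tested genes. Shares of this kind also depend on which genes have enough counts to be called, and that part was not tested.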
